A study of Mus musculus with 4 samples.

Results

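The receptor tyrosine kinases examined here were 50 genes, chosen by name as the cell-surface receptors with an intracellular tyrosine kinase domain, and measured in mouse tumour cells incubated with or without interferon-γ (IFN-γ). They were read by 75 probes (147 spots) of a microarray on which 20140 genes had at least 1 named probe. The probes were assigned through the RefSeq transcript each carries, and every probe of a gene was kept apart. The study used 2 lines. AB1-HA is labelled a mesothelioma of BALB/c origin, and LLC, titled 3LL in the sample names, a lung carcinoma of C57BL6 origin, known as Lewis lung carcinoma. Each line was incubated for 24 h with vehicle or with IFN-γ, which gave 4 groups of 1 array each. The dose of IFN-γ and the nature of the vehicle are not given in the sources used here, and neither is whether cultures were pooled.

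A receptor tyrosine kinase binds a ligand outside the cell, pairs with another receptor chain and phosphorylates tyrosines on its own tail, where adaptor proteins dock and start the RAS-MAPK, PI3K-AKT and phospholipase C pathways. Members of the class drive growth, survival, migration and vessel formation, and several are drug targets in lung cancer and mesothelioma. IFN-γ signals through a different receptor, which has no kinase domain of its own and relies on JAK kinases, so the receptors described here are not part of its direct signalling path. JAK signalling ends on promoter elements named GAS, and a later wave of interferon response factors binds elements named ISRE.

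The 250 bases before the start site were read for 42 of the 50 receptors (49 windows, RefSeq sequences, GRCm38.p6) and searched on both strands for the GAS letters TTCNNNGAA and the ISRE core GAAANNGAAA. The GAS letters stood in 1 window, or 2.04% of the receptor windows against 7.02% of all 32841 promoter windows of the table. That window belongs to Epha3, an ephrin receptor whose own signal was not well above background on any array. The ISRE core stood in 0 receptor windows against 2.98% of all windows. The median GC content of the receptor windows was 63.6% with 15 CpG dinucleotides, against 52.4% and 6 over all windows. Windows of Erbb3, Fgfr1, Pdgfrb, Csf1r, Insr, Insrr, Ret and Ntrk3 were not searched here, so 3 of the 5 receptors past 2-fold with IFN-γ are outside these counts. The windows below are those of 4 receptors described in the comparisons that follow, Mertk, Epha7, Ror2 and Alk, and that of Epha3. Mertk lies on the plus strand at chr2:128698665-128698914, Epha7 (the first of its start sites in the table) on the plus strand at chr4:28812881-28813130, Ror2 on the minus strand at chr13:53286125-53286374, Alk on the minus strand at chr17:72604308-72604557 and Epha3 on the minus strand at chr16:63864176-63864425. Each is written 5′ to 3′ in the direction of transcription, with the GAS letters in capitals.
Mertk: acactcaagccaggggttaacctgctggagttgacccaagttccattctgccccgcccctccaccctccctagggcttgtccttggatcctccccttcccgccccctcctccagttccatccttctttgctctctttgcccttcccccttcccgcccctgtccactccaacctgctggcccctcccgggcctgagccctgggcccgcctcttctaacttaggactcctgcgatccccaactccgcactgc
Epha7: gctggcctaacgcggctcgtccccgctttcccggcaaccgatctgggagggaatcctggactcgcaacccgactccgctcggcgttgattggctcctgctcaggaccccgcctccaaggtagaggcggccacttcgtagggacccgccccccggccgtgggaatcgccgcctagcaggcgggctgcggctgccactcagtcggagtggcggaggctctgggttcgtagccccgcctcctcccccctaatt
Ror2: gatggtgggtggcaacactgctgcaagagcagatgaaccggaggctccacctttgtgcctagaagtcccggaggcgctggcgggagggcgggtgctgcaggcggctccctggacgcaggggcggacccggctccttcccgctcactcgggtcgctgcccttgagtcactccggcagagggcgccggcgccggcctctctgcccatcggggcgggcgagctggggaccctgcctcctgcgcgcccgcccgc
Alk: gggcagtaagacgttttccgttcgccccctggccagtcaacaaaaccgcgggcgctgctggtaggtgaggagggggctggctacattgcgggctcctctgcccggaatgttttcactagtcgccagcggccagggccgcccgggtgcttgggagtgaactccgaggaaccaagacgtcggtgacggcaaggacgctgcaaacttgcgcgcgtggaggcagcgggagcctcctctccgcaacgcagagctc
Epha3: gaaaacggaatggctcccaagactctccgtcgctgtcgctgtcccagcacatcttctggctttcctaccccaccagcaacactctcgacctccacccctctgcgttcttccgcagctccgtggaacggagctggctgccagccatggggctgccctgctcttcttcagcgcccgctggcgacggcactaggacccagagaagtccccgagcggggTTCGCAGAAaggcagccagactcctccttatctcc
The capitals appear only in the Epha3 window, so the promoters of Mertk and Epha7, the receptors printed here that differed with IFN-γ, held neither set of letters in these 250 bases.

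Values are spot intensities scaled so that the 75th percentile of the gene probes is 1446.7 on every array, called scaled signals below. A probe counts as well above background where the scanner software marks at least 0.5 of its spots so, and a difference was called at 2-fold or more, a threshold of size. With 1 array per group there is no replicate check, no test was possible, and each difference compares 2 arrays. Before scaling, the 75th percentiles lay between 1380.2 and 1597.6 intensity units, and 57.5% to 58.2% of the gene probes were well above background. Median SDs between repeat spots, for the differences of probes printed 10 times, were 0.041 to 0.063 log2, which measures the printing and scanning of 1 RNA sample and not the cultures. In both lines 7 of 7 listed IFN-γ response genes rose, among them Irf1 by 4.44 log2 in AB1-HA and 4.43 in LLC. That list was chosen with earlier results of these data known, so its count is no test of the response. Over all genes, 2.98% were higher by 2-fold or more with IFN-γ in AB1-HA and 3.68% in LLC. Of the lines' labelled tissues, 5 of 9 mesothelial markers (Upk3b, Upk1b, Wt1, Calb2, Lrrn4) and 6 of 10 lung epithelial markers (Epcam, Cdh1, Nkx2-1, Sftpa1, Sftpb, Sftpc) were well above background on 0 arrays, while 13 of 15 mesenchymal markers were so on all 4. The other mesothelial markers (Msln, Krt8, Krt18, Krt19) and lung epithelial markers (Sftpd, Scgb1a1, Foxa2, Krt7) were well above background on at least 1 array. With vehicle, Msln and Krt19 were at least 2-fold lower in LLC, and Krt8 and Krt18 at least 2-fold higher. Foxa2 was also at least 2-fold higher in LLC with vehicle. The LLC vehicle array stood apart from the others: of 11985 genes measured on all 4 arrays, 258 (2.15%) were lower on it alone, by 0.5 log2 or more with the other arrays within 0.5 of each other, against 37 to 61 lower on any other array alone. Both the LLC response and the vehicle comparison of the lines use that array, and the comparison of the lines with IFN-γ does not.

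Both lines carried most of the receptors. The brightest probe of 30 of the 50 receptors (60%, against 59.5% of all genes) was well above background on all 4 arrays. For 14 receptors (28%, against 29.5% of all genes) no probe was well above background on any array. These were Erbb3, Erbb4, Kit, Flt4, Mst1r, Ret, Ros1, Ltk, Ntrk3, Tek, Ror1, Epha3, Epha4 and Ephb1, so the partners of the epidermal growth factor receptor that bind neuregulins, the stem cell factor receptor, the lymphatic receptor for vascular endothelial growth factors (VEGF) and the glial neurotrophic factor receptor were not detected at this sensitivity. Flt3, Insrr and Ror2 were well above background on the LLC arrays only, and Alk on the AB1-HA arrays only. Tie1 and Musk were so only on the AB1-HA IFN-γ array, at scaled signals of 9.15 and 8.5, close to the lowest signal well above background there, 7.68. On the AB1-HA vehicle array they read 9.73 and 5.63 without that mark, so the Tie1 signal was not higher with IFN-γ.

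**Figure D1:**
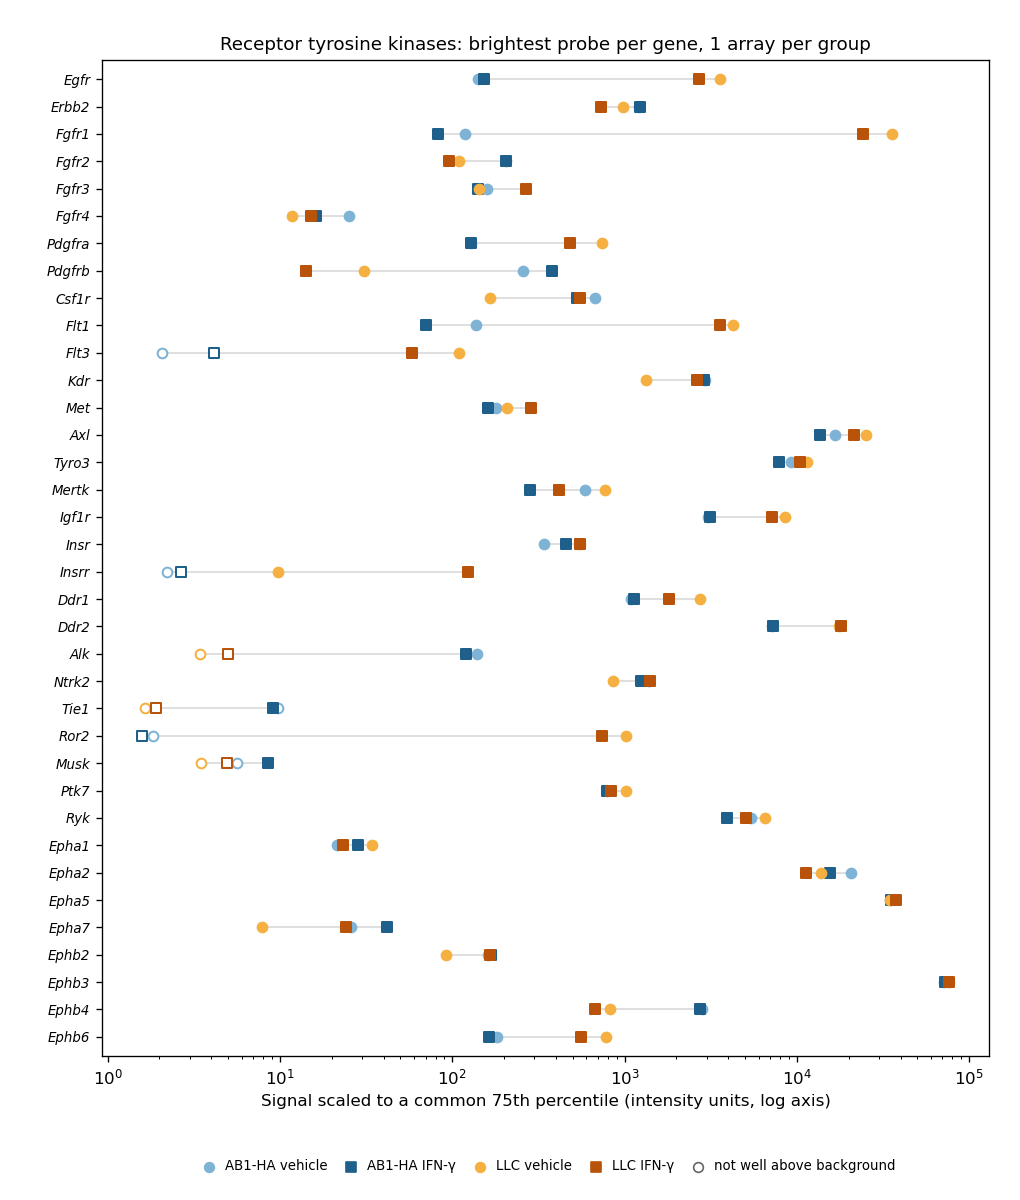
Scaled signal (log axis) of the brightest probe of the 36 receptors well above background on at least 1 array, with circles for vehicle, squares for IFN-γ, blue for AB1-HA, orange for LLC and open symbols for probes not well above background. For Fgfr1, Egfr, Flt1 and Ror2 the 2 LLC symbols lie far to the right of the AB1-HA symbols, and for most receptors the vehicle and IFN-γ symbols of a line lie close together.

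IFN-γ left most receptors of AB1-HA within 2-fold of vehicle. Of 31 receptors with a value, 0 rose and 1, Mertk, fell. Among all 13208 genes with a value, 2.98% were higher and 1.17% lower by 2-fold or more, 4.15% in all, so 1 of 31 receptors (3.23%) is near the background. The median difference of the receptors was -0.02 log2, against -0.08 over the 12700 genes measured on both arrays, and the receptor median was 0.06 with cyclic loess normalization. There were 13 receptors above 0 and 18 below, where 35.48% of those genes were above 0. The median absolute difference of the receptors, 0.168 log2, was close to that of all genes, 0.166.

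Mertk is a receptor of the TAM group (Tyro3, Axl, Mertk), which binds Gas6 and protein S and takes part in the uptake of dying cells and in damping inflammation. Its scaled signal was 593 on the AB1-HA vehicle array, 281 with IFN-γ, 768 on the LLC vehicle array and 417 with IFN-γ. The IFN-γ array was the lower of the pair in each line. The difference was -1.08 log2 in AB1-HA, 2.11-fold and past the threshold, and -0.88 in LLC, 1.84-fold and short of it. The probe has 1 spot, so no spread between repeat spots is known. In a bulk culture, fewer cells that carry a transcript and less of it per cell cannot be told apart. The other TAM receptors gave smaller values: Tyro3 was at 9268 and 7901 in AB1-HA and 11422 and 10496 in LLC, differences of -0.23 and -0.12 log2. Axl, a receptor often linked to drug resistance and a mesenchymal state in tumours, was at 16545 and 13713 in AB1-HA and 25347 and 21522 in LLC, differences of -0.27 and -0.24. By their brightest probes all 3 TAM receptors were thus below vehicle in both lines, also under each other scaling tried, while a second Tyro3 probe gave 0.07 log2 in AB1-HA and -0.07 in LLC. Of all genes measured on both arrays, only 35.48% were above 0 in AB1-HA and 42.37% in LLC, so a value below vehicle was the commoner sign. Of the TAM differences, 1 was past 2-fold. With a background correction that adds an offset, Mertk in AB1-HA was at -0.85 log2 and no longer past it, and with scaling to the array median Mertk in LLC was at -1.03 and past it.

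The AB1-HA receptors nearest to the threshold from outside were Flt1 and Epha7. Flt1, the VEGF receptor that also serves as a decoy for the ligand, was at 137 with vehicle and 70.4 with IFN-γ, a difference of -0.96 log2. Epha7, a receptor for membrane-bound ephrin-A ligands in cell repulsion, was at 25.7 and 41.6, a difference of 0.70. Neither passed the threshold.

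In LLC, 4 receptors differed by 2-fold or more with IFN-γ: Insrr, Csf1r and Epha7 rose, and Pdgfrb fell. That is 4 of the 33 receptors with a value (12.1%), where 3.68% of 13411 genes were higher and 1.46% lower, 5.15% in all. The 33 receptors had a median difference of -0.25 log2, against -0.06 over 12884 genes measured on both arrays. There were 12 receptors above 0 and 21 below, where 42.37% of those genes were above 0. The median absolute difference of the receptors was 0.453 log2 against 0.214 for all genes. All 4 receptors rest on probes with 1 spot, and all 4 differences use the LLC vehicle array. Of all called genes, 71.6% were higher, against 55.5% with scaling to the array median, 60% with quantile and 55.7% with cyclic loess normalization, so the split of higher against lower genes in this comparison depends on the scaling; the 4 receptors kept their signs and stayed past 2-fold under all 3.

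Insrr, the insulin receptor-related receptor, is a relative of the insulin receptor known as a sensor of alkaline pH. Its scaled signal was 9.79 with vehicle and 123 with IFN-γ in LLC, a rise of 3.65 log2 or 12.5-fold. In AB1-HA it was 2.21 and 2.68, not well above background on either array. The gene was thus clearly seen on 1 array of the 4, the LLC array with IFN-γ, since the vehicle value lies just above the lowest signal well above background on its array, 6.35. With the offset correction the difference was 0.72 log2, below the threshold. Its relatives did not pass the threshold: Igf1r, the receptor for insulin-like growth factors, was at 8513 and 7151 in LLC (-0.25 log2), and Insr, the insulin receptor, at 554 and 552 (-0.01).

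Csf1r is the receptor for colony-stimulating factor 1 and interleukin 34, best known from macrophages. Its brightest probe read 675 and 529.9 in AB1-HA with vehicle and IFN-γ, and 166 and 555 in LLC. The LLC vehicle array was the low one, and the other 3 arrays lay within 0.35 log2 of each other. The LLC difference was 1.74 log2, 3.35-fold. A second probe of the gene, well above background on all 4 arrays, read 198, 184, 242 and 293 in the same order, and its LLC difference was 0.28 log2, short of the threshold. A further Csf1r probe was well above background on 0 arrays. Of 10 leukocyte markers on the array, 4 were well above background on all 4 arrays and Itgax on the LLC arrays only. The defining ones Ptprc, Adgre1, Lyz2 and Tyrobp were well above background on 0 arrays, and the summed scaled signal of the list was 4681 and 5112 in AB1-HA and 5109 and 5432 in LLC.

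Epha7 read 7.83 with vehicle and 24.2 with IFN-γ in LLC, a rise of 1.63 log2 or 3.09-fold. The vehicle value is near the lowest signal well above background, and the IFN-γ value is close to the 25.7 of AB1-HA vehicle. The AB1-HA difference had the same sign (0.70 log2). Both other Epha7 probes were well above background on 0 arrays, and with the offset correction the LLC difference was 0.18 log2.

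Pdgfrb, the β receptor for platelet-derived growth factor and a mark of mesenchymal cells, gave opposite signs in the lines. It read 259 with vehicle and 380.2 with IFN-γ in AB1-HA, a difference of 0.55 log2 that stayed inside the threshold. In LLC it read 30.8 and 14.2, and it fell by 1.12 log2, 2.17-fold. Both LLC signals are low, and with the offset correction the LLC difference had the opposite sign, 0.29 log2. That setting also starts from median spot signals and backgrounds, and which of its steps turned the sign was not tested. Of the 14 mesenchymal markers with a value in LLC, Col1a1 (-1.90 log2) and Col3a1 (-1.04) also fell past 2-fold with IFN-γ and 0 rose. Of all genes, 1.46% were lower and 3.68% higher there, and the median of the markers was -0.13 log2. In AB1-HA, 0 of 15 fell past 2-fold and 1, Acta2, rose, with a median of -0.16 log2. The part of these markers in the Pdgfrb difference was not tested. Pdgfrb and Csf1r are neighbours on chromosome 18 with 0 protein-coding genes between them, and in LLC they moved in opposite directions. Pdgfra, the α receptor, read 129 and 128 in AB1-HA and 745 and 479.6 in LLC, differences of -0.01 and -0.64 log2.

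The LLC receptors nearest to the threshold from outside were Kdr and Fgfr3. Kdr, the main VEGF receptor of vessel growth, read 2921 and 2878 in AB1-HA and 1330.3 and 2629 in LLC, a difference of 0.98 log2 in LLC. As for Csf1r, the LLC vehicle array was the low one. Fgfr3, a fibroblast growth factor receptor, read 159 and 141 in AB1-HA and 142 and 267 in LLC, a difference of 0.91 log2; here the LLC IFN-γ array was the high one. The receptors well above background on 4 arrays that were lower on the LLC vehicle array alone were Csf1r, Kdr, Ntrk2 and Ephb2, 4 of 30, against 2.15% of all genes by the same definition, which was chosen after the values were seen. Ntrk2, the receptor for brain-derived neurotrophic factor, read 861 there against 1395, 1241 and 1403 on the AB1-HA vehicle, AB1-HA IFN-γ and LLC IFN-γ arrays. Ephb2, a receptor for ephrin-B ligands, read 92.2 there against 162, 167 and 167. These readings and the count of 4 are of brightest probes. The second bright Csf1r probe was not lowest on the LLC vehicle array. A further Kdr probe, printed 10 times, was well above background on that array only, and both other Ntrk2 probes were so on 0 arrays. For these 4 receptors, the part of the LLC vehicle array in the difference with IFN-γ was not tested.

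**Figure D2:**
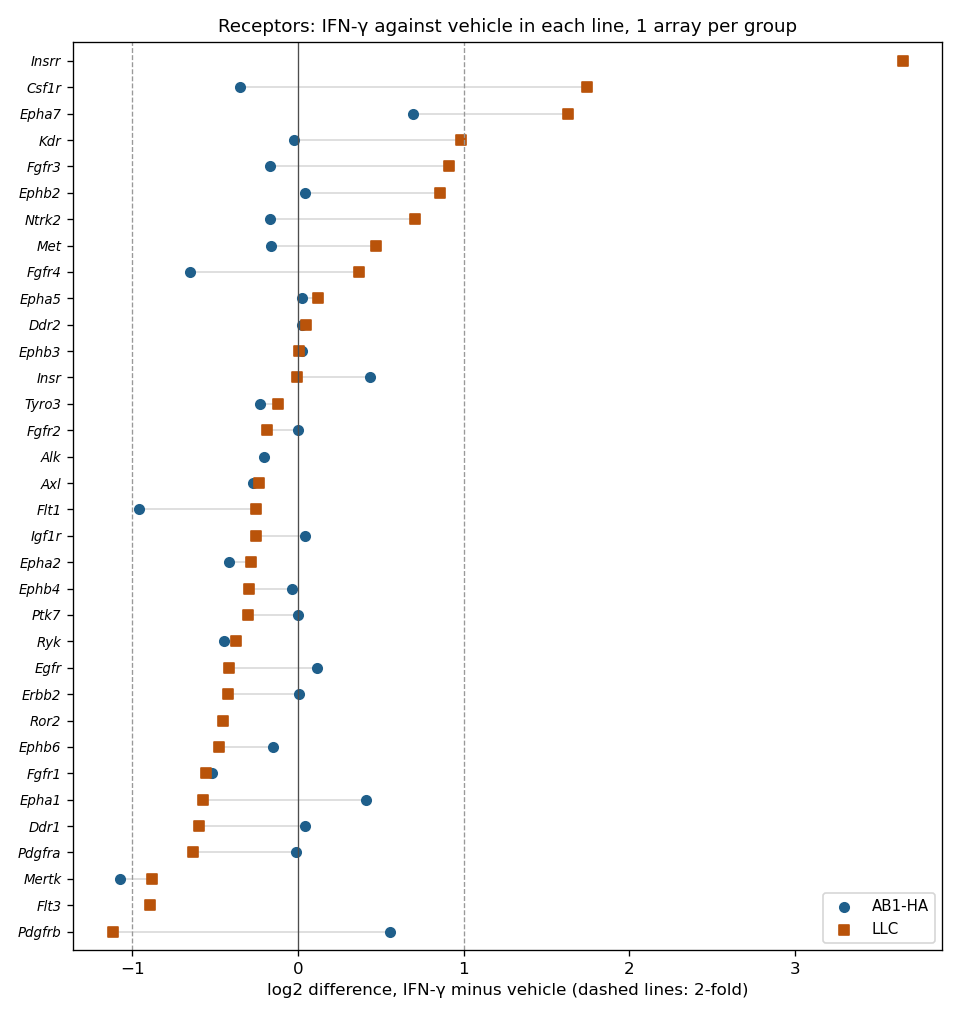
Log2 difference between the IFN-γ and the vehicle array for each receptor in AB1-HA (blue circles) and LLC (orange squares), brightest probe, 1 array per group, with dashed lines at 2-fold. Insrr, Csf1r and Epha7 lie to the right of the dashed line in LLC and Pdgfrb to its left, and in AB1-HA only Mertk passes a dashed line.

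Differences with IFN-γ were also set against each other between the lines, over the 30 receptors measured on all 4 arrays. The LLC difference lay at least 2-fold above the AB1-HA difference for 4 receptors, Csf1r by 2.09 log2, Fgfr3 by 1.08, Fgfr4 by 1.02 and Kdr by 1.004. It lay at least 2-fold below for 1, Pdgfrb, at -1.67 log2. Over 11985 genes the shares were 2.54% above and 1.69% below, 4.23% in all. The medians were 0.03 log2 both for the receptors and for all genes. None of these differences between the lines could be tested. With the offset correction Csf1r alone stayed past the threshold, and Pdgfrb was at -0.20 log2.

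The lines differed far more from each other than either did from itself with IFN-γ. With vehicle, 17 of the 34 receptors with a value (50%) were at least 2-fold apart, where 32.5% of 13836 genes were. In LLC, 10 were higher (16.4% of all genes) and 7 were lower (16% of all genes). Fgfr1, Ror2, Flt1, Egfr, Flt3 and Pdgfra were the receptors with differences above 5-fold on the LLC side, and Alk and Pdgfrb those on the AB1-HA side. On the IFN-γ arrays, which include neither vehicle array, 14 of 36 receptors (38.9%) were at least 2-fold apart, 10 higher and 4 lower in LLC, where 15.4% and 13.3% of 13893 genes were, 28.6% in all.

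Among the receptors higher in LLC, Fgfr1, a fibroblast growth factor receptor of mesenchymal cells, read 119 and 83.2 on the AB1-HA arrays and 35765 and 24361 on the LLC arrays. The LLC signals were 299.7-fold higher with vehicle and 293-fold higher with IFN-γ. A second probe read 15.3, 17.9, 2917 and 1987 in the same order, 7.57 log2 apart with vehicle. The remaining Fgfr1 probe read 672, 785, 937 and 874, only 0.48 log2 apart, so the probes of this gene disagreed about the size of the difference. The files hold no probe sequences, and which transcripts each probe reads was not examined.

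Ror2, a receptor for Wnt5a with roles in cell movement, was not well above background in AB1-HA, at 1.84 and 1.59. It read 1017 and 743 in LLC, at least 117-fold higher with vehicle and at least 96.8-fold higher with IFN-γ. Such a bound sets the brighter array against the higher of the dim probe's own signal and the lowest signal well above background on the dim array. Its ligand gene Wnt5a was also higher in LLC, at 574 against 15.4 with vehicle.

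Flt1 read 137 and 70.4 in AB1-HA and 4257 and 3579 in LLC, 31.1-fold and 50.8-fold higher in LLC with vehicle and with IFN-γ. Kdr went the other way with vehicle, at -1.13 log2, and was -0.13 apart with IFN-γ, so it passed the threshold in 1 of the 2 comparisons. A further Kdr probe, printed 10 times, was well above background only on the LLC vehicle array, at 6.35. Both genes are known from endothelial cells. Of 8 endothelial markers, Cdh5, Cldn5, Emcn and Sox17 were well above background on 0 arrays, and Pecam1, Esam, Vwf and Egfl7 on at least 1. Egfl7 was at least 2-fold higher in LLC and Esam at least 2-fold lower, both with vehicle and with IFN-γ. The summed signal of the list was 163 and 175 in AB1-HA and 16312 and 16321 in LLC, nearly all of it from Egfl7 (16241 and 16256 in LLC). The part of such cells in the Flt1 difference was not tested beyond these levels.

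Egfr, the epidermal growth factor receptor, was measured by a probe printed 10 times. It read 141 and 152 in AB1-HA and 3593 and 2688 in LLC, 4.67 log2 or 25.5-fold apart with vehicle (SD over repeat spots 0.0997 log2) and 17.6-fold apart with IFN-γ. The other probes of the gene were 6.83-fold and 10.8-fold higher in LLC with vehicle. All 3 Egfr probes thus placed LLC higher. Erbb2, the ligandless partner of Egfr, read 1217 and 1224 in AB1-HA and 976 and 728 in LLC, -0.32 and -0.75 log2 apart, within the threshold.

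Flt3, a receptor of blood progenitors and dendritic cells, was not well above background in AB1-HA (2.07 and 4.12) and read 109 and 58.7 in LLC. It was at least 12.6-fold higher in LLC with vehicle and at least 7.65-fold with IFN-γ, and its LLC difference with IFN-γ was -0.90 log2, or -1.03 to -1.12 under the other scalings. Between the lines with IFN-γ it was at 0.53 log2 with the offset correction and 0.45 as a mean over probes, both short of 2-fold. A second Flt3 probe was well above background on the LLC vehicle array alone, at 14.9. Itgax was likewise at least 34.5-fold higher in LLC with vehicle, the only marker of the leukocyte list past 2-fold in that comparison.

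Pdgfra was 5.78-fold higher in LLC with vehicle (SD over 10 repeat spots 0.0681 log2) and 3.75-fold with IFN-γ. Ephb6, an ephrin receptor whose kinase domain is inactive, read 183 and 164 in AB1-HA and 777 and 559 in LLC, 4.25-fold higher with vehicle. Igf1r read 3061 and 3149 in AB1-HA against 8513 and 7151 in LLC, 2.78-fold higher with vehicle. Both discoidin domain receptors, which bind collagen rather than a soluble factor, were higher in LLC with vehicle. Ddr1 read 1095 against 2743 with vehicle (2.5-fold) and 1130.1 against 1813 with IFN-γ, where the 0.68 log2 difference was within the threshold. Ddr2 read 7165 against 17535 with vehicle (2.45-fold) and 7300.2 against 18155 with IFN-γ, and its second probe gave 0.97 log2 with vehicle, just short of the threshold.

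Of the receptors lower in LLC, Alk, the anaplastic lymphoma kinase known from fusions in lung cancer, read 139 and 120.4 in AB1-HA. It was not well above background in LLC, at 3.42 and 4.99, and so was at least 21.9-fold lower there with vehicle and at least 15.8-fold lower with IFN-γ. Pdgfrb was 8.42-fold lower in LLC with vehicle and 26.8-fold lower with IFN-γ. Ephb4, the receptor for ephrin-B2 on veins, read 2809.8 and 2741 in AB1-HA and 824 and 672 in LLC, 3.41-fold and 4.08-fold lower. Its second probe gave -1.57 log2 with vehicle, so both Ephb4 probes placed AB1-HA higher. Alk, Pdgfrb and Ephb4 passed the threshold in both comparisons of the lines. With the offset correction Alk was at -0.72 log2 with IFN-γ, short of it, and Pdgfrb at -1.50 with vehicle and -1.70 with IFN-γ, still past it.

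The other receptors lower in LLC passed the threshold with vehicle and not with IFN-γ. Csf1r was 4.08-fold lower with vehicle and 0.07 log2 apart with IFN-γ, and its second bright probe gave 0.29 log2 with vehicle, so that the mean over its probes, -0.87, was short of the threshold. Epha7 was 3.28-fold lower with vehicle, 0.037 log2 apart with the offset correction, and -0.78 log2 apart with IFN-γ. Fgfr4 read 25.3 and 16.1 in AB1-HA and 11.7 and 15.1 in LLC, -1.11 log2 apart with vehicle and -0.10 with IFN-γ. With Kdr, Fgfr4 was the nearest to the threshold from inside, and as a mean over the probes of each gene the vehicle differences of Fgfr4 and Kdr were 0.19 and 0.067 log2, on the other side of 0. Each of the 4 receptors was low on the LLC vehicle array, or, for Fgfr4, high on the AB1-HA vehicle array. Their comparison without the vehicle arrays stayed below 2-fold by the way the 4 were grouped, and the part of these arrays was not tested.

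The nearest from outside with vehicle were Fgfr2 and Ephb2. Fgfr2, a fibroblast growth factor receptor of epithelia in one splice form, read 205 and 205 in AB1-HA and 109.6 and 96.1 in LLC, -0.90 log2 apart with vehicle and -1.09 with IFN-γ, or -0.66 there with the offset correction. Its other probe, printed 10 times, read 41.5 and 47.5 in AB1-HA and was not well above background in LLC, at least 6.54-fold lower there with vehicle. Ephb2 was -0.82 log2 apart with vehicle and -0.01 with IFN-γ.

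**Figure D3:**
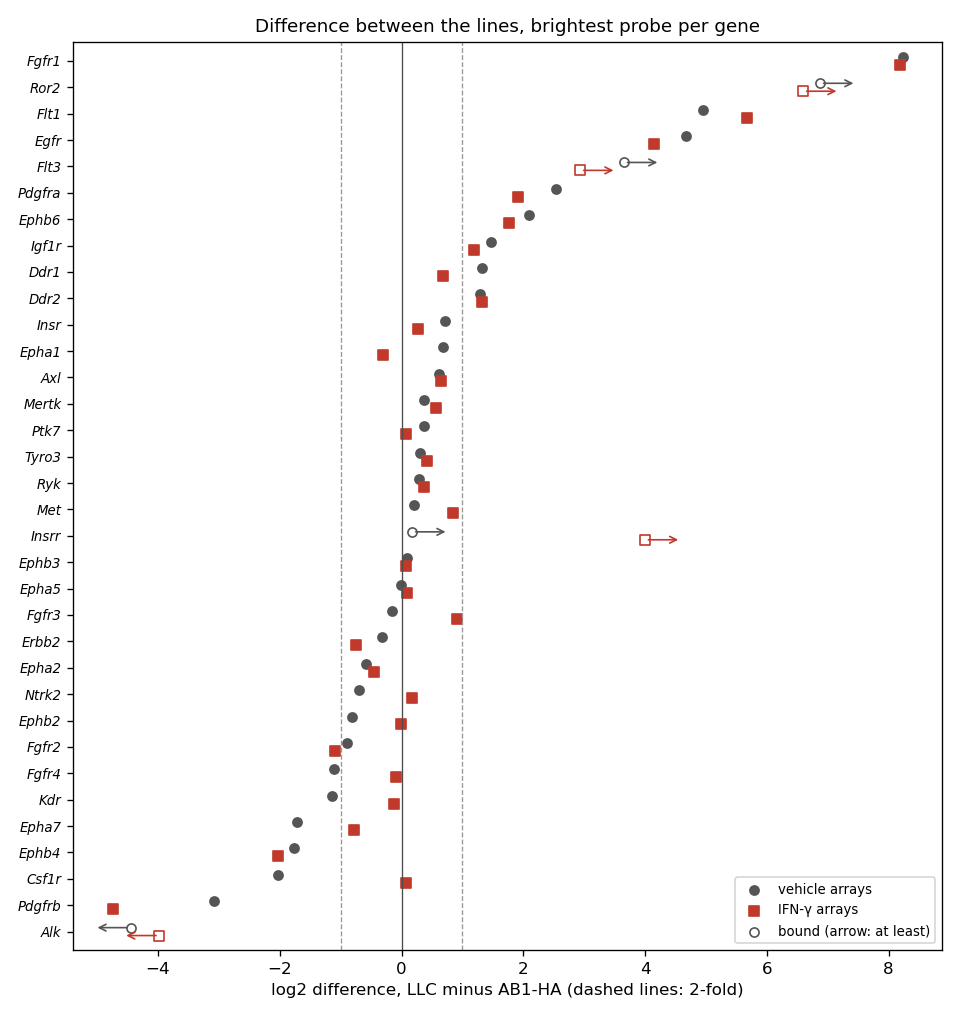
Log2 difference between LLC and AB1-HA for each receptor on the vehicle arrays (grey circles) and the IFN-γ arrays (red squares), brightest probe, with open symbols and arrows for bounds and dashed lines at 2-fold. Fgfr1, Ror2, Flt1 and Egfr lie farthest to the right on both kinds of array, Pdgfrb and Alk farthest to the left, and Csf1r lies left on the vehicle arrays and at 0.07 on the IFN-γ arrays.

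The remaining receptors measured on all 4 arrays were within 2-fold in all 4 comparisons by their brightest probes. Met, the receptor for hepatocyte growth factor, read 180.0 and 161 in AB1-HA and 207 and 287 in LLC. Ptk7, an inactive kinase of the planar polarity pathway, read 793, 792, 1023 and 830.4 in the same order, and Ryk, a Wnt receptor that is also kinase-inactive, 5387, 3952, 6571 and 5075. Of the ephrin receptors, Epha5 and Ephb3 had like values on all arrays, while Epha1 and Epha2 varied more, within 2-fold. Epha1 read 21.4, 28.5, 34.4 and 23.1 in the same order. Its difference between the lines with vehicle, 0.68 log2, ran from -0.29 to 1.02 over the alternatives and passed 2-fold with cyclic loess normalization only. Epha2 read 20680.4, 15528, 13761 and 11288, Epha5 between 34664 and 37632, and Ephb3 between 71337 and 76444. The second Epha5 probe was well above background on 0 arrays, so the 2 probes of that gene disagree about whether it is expressed.

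Probes of a gene also disagreed elsewhere. Of the 17 receptors with several probes, 7 had all of them well above background on all 4 arrays, and 5 (Csf1r, Epha5, Epha7, Ephb6 and Ntrk2) had at least 1 probe that was so on 4 arrays and at least 1 on 0. Over all 75 probes, 41 were well above background on 4 arrays and 24 on 0. For Insr, the brightest probe gave 0.71 log2 between the lines with vehicle and another -0.37. For Fgfr3, the brightest probe gave -0.16 and the other, at 13.3 and 32.3 with vehicle, 1.28. For Fgfr4, the second probe was not well above background on the AB1-HA vehicle array, where the brightest was highest. With vehicle, all probes placed the same line higher for Egfr, Fgfr1, Fgfr2, Tyro3, Ddr2, Ephb4 and, by bounds, Flt3.

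**Figure D4:**
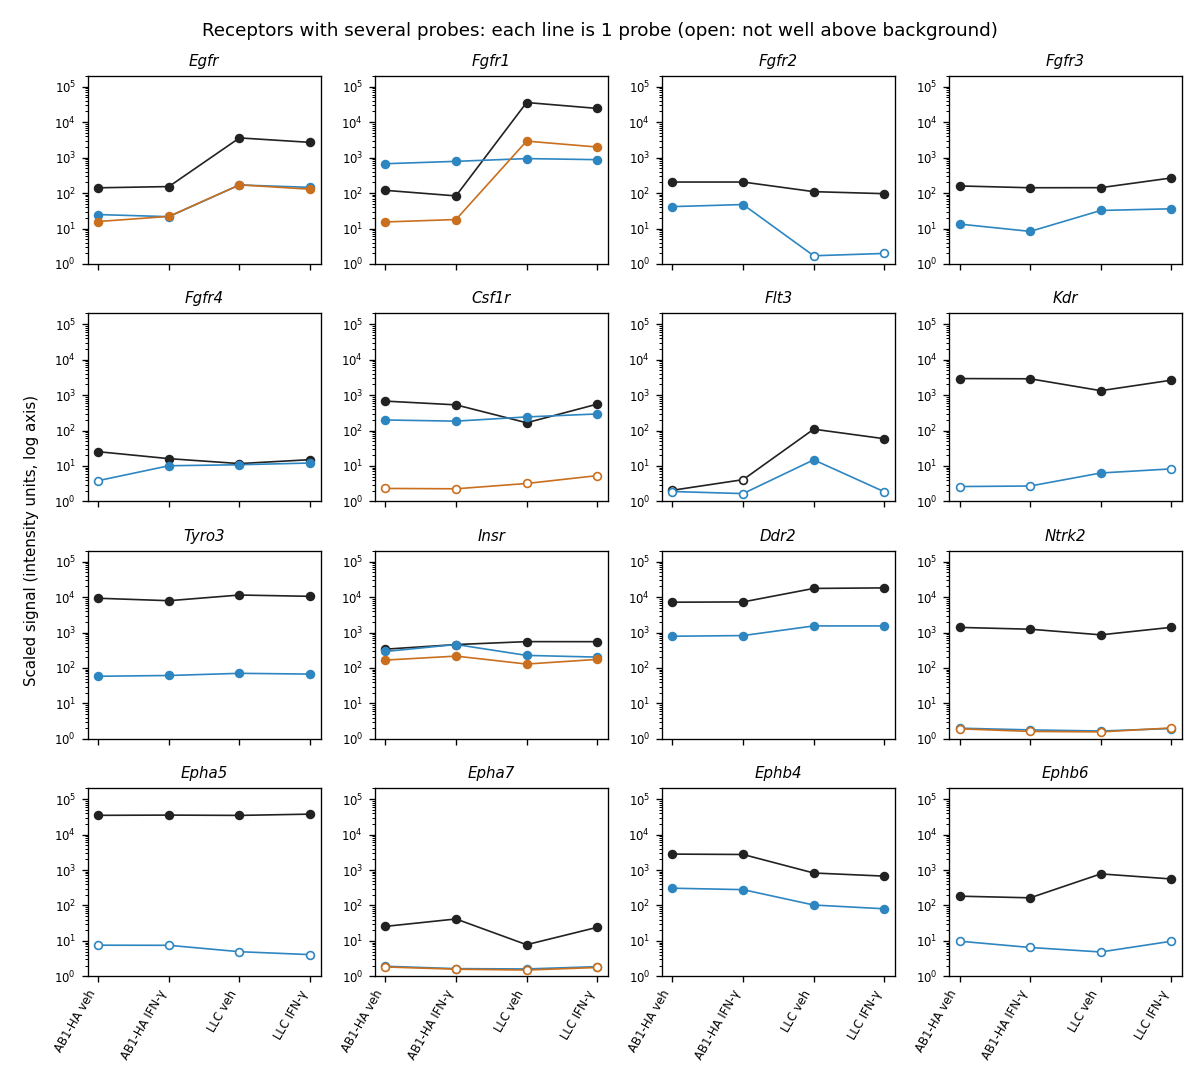
Scaled signal (log axis) on the 4 arrays for each probe of 16 receptors with several probes, 1 line per probe, with open symbols for probes not well above background. All Egfr probes are higher and both Ephb4 probes lower in LLC, 1 Fgfr1 probe stays level while 2 are far higher in LLC, and Csf1r dips on the LLC vehicle array in 1 probe only.

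Ligand genes were read next. Of 60 genes that encode ligands of these receptors, 43 were well above background on all 4 arrays. With IFN-γ, 1 of 47 ligands with a value rose and 3 fell in AB1-HA, with a median of -0.05 log2, and 2 rose and 2 fell of 50 in LLC, with a median of -0.02, where 4.15% and 5.15% of all genes passed 2-fold. The 3 that fell in AB1-HA are all ligands of Egfr. Areg, amphiregulin, read 368 with vehicle and 102 with IFN-γ (-1.85 log2), Ereg, epiregulin, 2015 and 896 (-1.17), and Hbegf, the heparin-binding ligand, 6619.9 and 3208 (-1.05). In LLC the same genes read 2158 and 2233, 1608 and 2014, and 3993 and 6994, differences of 0.05, 0.32 and 0.81 log2, none past the threshold.

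Flt3l, the ligand of Flt3, rose in both lines, from 489.9 to 1571 in AB1-HA (1.68 log2) and from 569 to 1174 in LLC (1.05). Pgf, placental growth factor, a ligand of Flt1, rose from 173 to 349 in LLC (1.01) and read 37.9 and 30.9 in AB1-HA. Ptn, pleiotrophin, a ligand linked to Alk, fell from 741 to 266 in LLC (-1.48) and read 16.8 and 15.6 in AB1-HA. Gas6, the ligand of the TAM receptors, fell from 361 to 169 in LLC (-1.09) and was not well above background in AB1-HA. Hbegf in AB1-HA was at -0.96 log2 with the setting that moved it most, and in LLC Flt3l was at 0.90, Pgf at 0.74 and Gas6 at -0.83, so these calls depend on the scaling or background correction, while those of Areg, Ereg, Flt3l in AB1-HA and Ptn held under all 9 alternatives. In LLC, Gas6 was past 2-fold and its receptor Mertk, at -0.88, was just short of it.

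**Figure D5:**
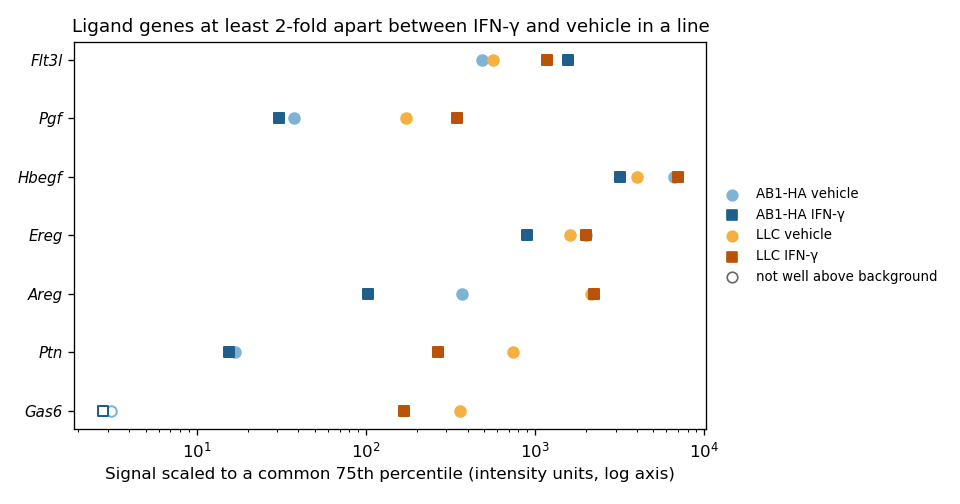
Scaled signal (log axis) of the 7 ligand genes at least 2-fold apart between IFN-γ and vehicle in a line, with circles for vehicle, squares for IFN-γ, blue for AB1-HA, orange for LLC and open symbols for probes not well above background. The dark blue squares of Hbegf, Ereg and Areg lie to the left of the light blue circles, and the squares of Flt3l lie to the right of the circles in both lines.

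Of the adaptors and effectors that dock on the receptors, 0 of 29 with a value rose or fell in AB1-HA and 0 of 32 in LLC, with medians of -0.16 and -0.09 log2. Of the negative regulators and turnover genes, 0 of 23 in AB1-HA and 0 of 24 in LLC passed 2-fold, with medians of -0.08 and -0.12. Over all genes 4.15% and 5.15% passed 2-fold. With vehicle, 20 of 52 ligands were higher in LLC and 10 lower, 9 of 32 adaptors higher and 1 (Dok2) lower, and 6 of 25 negative regulators higher and 5 lower, where 16.4% of all genes were higher and 16% lower. Nrg1, the neuregulin bound by Erbb3 and Erbb4, was 15.2-fold lower in LLC, while neither receptor was detected in either line. Hgf, the ligand of Met, was at least 4.43-fold lower in LLC, and Gdnf, the ligand of the undetected Ret complex, at least 209.8-fold higher.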

How the data were processed

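Total RNA of 2 mouse tumour lines, each with vehicle or IFN-γ for 24 h, was labelled with Cy3 and hybridised to 4 single-colour Agilent arrays, 1 per group, with groups taken from the sample labels. Per the file headers, the deposited spot intensities are the processed signals of Agilent Feature Extraction 10.7.1.1 (10.7 in the submitters' processing notes), which corrects background and marks outlier, saturated and well-above-background spots. The authors also deposited a value table on a log2 scale; its columns followed the scaled, gene-centred log2 signals of the scanner files, with medians of 0.108, -0.0777, -0.127 and 0.0759, and it served as an alternative. No source used here states the steps behind that table.

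Control spots and outlier spots (166 to 201 per array, among them 1 to 4 member spots) were left out, spots of a probe were averaged as log2 intensity, and the 75th percentile of the 39429 gene probes of an array was subtracted. RefSeq accessions were matched without version to gene symbols of GRCm38.p6, which named 26581 probes. The brightest probe, by its mean over the 4 arrays, stood for a gene in counts. A probe not well above background on 1 array of a pair gave a bound. The 50 receptors and all gene lists were chosen with earlier results of these data known. Described in full are receptors at least 2-fold apart with IFN-γ or, with vehicle, between the lines, and the 2 nearest the threshold on either side; of the pathway lists, up to 6 genes per list and comparison at least 2-fold apart with IFN-γ, while line differences of list genes were picked after their values were seen. Computation used Python 3.11.15, pandas 2.3.3 and, for quantile, cyclic loess and normexp (offset 50, on median spot signals and backgrounds), limma 3.58.1 in R 4.3.3. Scripts were tested on simulated data. The alternatives were 3 other scalings, normexp, the deposited value table, 2 other background filters, averaging all probes of a gene, and keeping outlier spots. The number of arrays limits the precision of every value.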

Additional observations from a re-analysis of the deposited data

Results flagged for a closer look

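In all, 5 of the 30 receptors measured on all 4 arrays had differences with IFN-γ at least 2-fold apart between the lines. For all 5 they also lay on opposite sides of 0. Over 11985 genes, 4.23% lay at least 2-fold apart, and the share also on opposite sides of 0 was not counted. With 1 array per group, the difference between the lines was not tested. The value was 2.09 log2 for Csf1r (-0.35 in AB1-HA and 1.74 in LLC) and -1.67 log2 for Pdgfrb (0.55 and -1.12). It was 1.08 for Fgfr3 (-0.17 and 0.91), 1.02 for Fgfr4 (-0.65 and 0.37) and 1.004 for Kdr (-0.02 and 0.98). The second bright probe of Csf1r gave -0.11 and 0.28 log2 in the lines, so the opposite signs were seen in 2 probes and the size in 1. For Kdr the AB1-HA value lay near 0 and turned to 0.055 log2 with cyclic loess normalization, so its opposite signs depend on the scaling. For Fgfr4 the AB1-HA value ran from -0.66 to 0.37 log2 over the alternatives, and its second probe gave a bound of at least 0.23 log2 there. For Pdgfrb the LLC value was 0.29 log2 with the offset correction, the same sign as in AB1-HA. The opposite signs of Fgfr4 and Pdgfrb thus did not hold under every alternative.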

How the results depend on the processing

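All 9 alternatives were run; no paired analysis was possible because each group has 1 array. With 1 array per group no replicate could be left out either. Under the 3 other scalings no called receptor changed sign. The count of receptors lower with IFN-γ in LLC, 1, became 3 with scaling to the array median, 2 with quantile or cyclic loess normalization, 2 with no background filter, 0 with normexp and 2 when all probes of a gene were averaged. Normexp, which adds an offset of 50 and so draws low signals together, also gave 0 in place of 1 lower in AB1-HA, 1 in place of 3 higher in LLC and 2 in place of 4 lower between the lines with IFN-γ, where no filter gave 7. The count of receptors whose differences with IFN-γ lay 2-fold apart between the lines, 5, became 3 with the array median or cyclic loess, 1 with normexp, 9 with no filter and 2 with the mean over probes. Among receptors past 2-fold, the values that turned were Pdgfrb in LLC (0.29 log2) and Epha7 between the lines with vehicle (0.037), both with normexp, and, with the mean over probes, Fgfr4 (0.19) and Kdr (0.067) between the lines with vehicle and Fgfr4 in the difference between the lines' responses (-0.11). The cause was not tested beyond the construction of each setting. The counts of receptors higher or lower between the lines with vehicle stayed within 1.5 times under every alternative. The median of all genes moved by -0.15 log2 in the LLC response and -0.13 between the lines with IFN-γ when arrays were scaled to their medians, and by 0.15 between the lines with vehicle with cyclic loess. Signals near the lowest one well above background limit Insrr, Epha7, Fgfr4, Pdgfrb in LLC, Tie1 and Musk.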

Other observations

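Of the neighbouring receptor genes, Pdgfra, Kit and Kdr lie in a row on chromosome 5 with 0 protein-coding genes between them, and their signals had no common pattern: with vehicle Pdgfra was 2.53 log2 higher in LLC, Kit was not well above background on any array, and Kdr was at -1.13 log2. Flt3 and Flt1, also on chromosome 5 with 1 protein-coding gene between them, were both higher in LLC, by at least 12.6-fold and by 31.1-fold. Ltk, with 1 protein-coding gene between it and Tyro3 on chromosome 2, was not well above background on any array, while Tyro3 was on all 4.

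Among genes of the pathway lists that the comparisons with IFN-γ did not name, several differed between the lines by bounds above 50-fold. With vehicle, Vegfc, a ligand of Flt4 and Kdr, was at least 140.2-fold higher in LLC, Plcg2, a phospholipase that docks on activated receptors, at least 93.0-fold, Grb14, an adaptor of the insulin receptor, at least 72.4-fold and Spry1, a feedback inhibitor of receptor signalling, at least 99.7-fold. Ptprf, a receptor tyrosine phosphatase, was at least 658-fold lower in LLC. These genes were chosen for their size of difference after their values were seen.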
